A study of Mus musculus with 4 samples.

Results

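The genes described here, for the most part, restrain signalling through the RAS-ERK pathway and are themselves switched on by it. They are the MAP kinase phosphatases *Dusp1*, *Dusp4*, *Dusp5* and *Dusp6* and the Sprouty genes *Spry1*, *Spry2* and *Spry4*. The Sprouty-related genes *Spred1* and *Spred2*, and *Phlda1*, complete the set. Their rows were taken by gene symbol from the deposited transcript table, which gave 13 transcripts of these 10 genes among 34200 transcripts of 21945 genes tested. 7 of the genes had 1 tested transcript, and *Dusp6*, *Spred1* and *Spred2* had 2 each.

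The samples were NIH/3T3 cells, an immortalised line of mouse embryonic fibroblasts, grown in medium with serum. All of them were transfected with siRNA at 10 nM by lipofection and lysed 48 h later. The 2 knockdown (KD) libraries came from cells that received a pair of *Setd2*-specific siRNAs together, and the 2 control (WT) libraries from cells that received Scrambled siRNA; SETD2 is the enzyme that trimethylates lysine 36 of histone H3 along transcribed genes. Polyadenylated RNA was sequenced. The siRNAs of the pair were not used apart and no untransfected cells were sequenced, so an effect of losing *Setd2* and an off-target effect of either siRNA cannot be told apart.

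ERK is the last kinase of a cascade that carries growth factor signals from receptor to nucleus. DUSP proteins remove the phosphates that activate MAP kinases: DUSP4 and DUSP5 do so in the nucleus, DUSP6 in the cytoplasm, and DUSP1, also nuclear, acts mainly on the stress kinases p38 and JNK. Sprouty proteins block signalling between the receptor and RAS or RAF, and SPRED proteins bring neurofibromin to the membrane, where it switches RAS off. In fibroblasts many of these genes are transcribed soon after serum or growth factor is added, and several of their mRNAs are short-lived.

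The deposited table holds a fitted mean and spread of each transcript over the 4 libraries and no value for a single library. Levels below are therefore group means in normalised estimated counts, that is, reads assigned to a transcript after scaling the libraries to each other. From the mean, the effect and the spread, the range that must contain both libraries of a group can be worked out exactly, and that range is given in place of the single values. A transcript was called when the q-value of the Sleuth likelihood ratio test was under 0.05. By this test 12.5% of all transcripts were called, 7.26% as higher and 5.21% as lower in KD. *Setd2* itself (ENSMUST00000153838.7) was at 923 in KD and 3680 in WT, which was 74.9% lower (q = 0.0103). All 8 fibroblast markers examined were present, the lowest at 3112, whereas the tested epithelial, leukocyte and endothelial markers reached at most 236, 347 and 32.2, and *Epcam* and *Krt5* were not tested. The design notes describe independent transfections without tying each library to one of them, so the p-values cover no more than these 4 libraries. The Sleuth standard errors are not the spread between libraries alone. They also hold the uncertainty of assigning reads and a variance fitted by Sleuth, and can exceed that spread. For *Dusp5* the standard error was 0.095 and the within-group standard deviation 0.011, both on the log2 scale. Of the squared standard error of *Dusp5*, 9.98% was the uncertainty of assigning reads.

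The members moved in both directions. Of the 13 transcripts, 5 were called: *Dusp4*, *Dusp5* and *Spry4* rose in KD, and *Dusp1* and the long *Spred1* transcript fell. The other 8 did not pass. Of all 13, 12 had a mean of at least 100, and 5 of these were called, beside 21.4% of all transcripts above that mean. The Sleuth Wald test, which uses the fitted effect and its standard error, also called 5 (18.2% of all transcripts), and they were the same transcripts. A limma test rebuilt from the deposited means and spreads called 5 as well (9.68% of all), with the short *Dusp6* transcript in place of the long *Spred1* one. At gene level the deposited q-values called 5 genes, *Dusp1*, *Dusp4*, *Dusp5*, *Spry4* and *Spred1*, where 24% of all genes were called. The median change of the 10 genes, as summed levels, was -0.02 on the log2 scale beside -0.03 for all genes, with a range from -0.70 to 1.83.

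**Figure D1:**
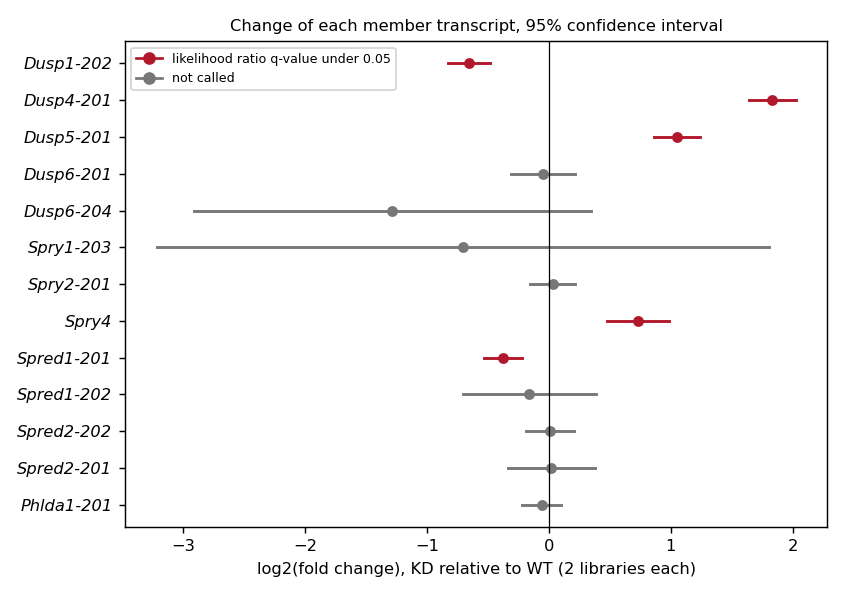
Log2 fold change of each of the 13 transcripts in KD relative to WT, with its 95% confidence interval from the deposited standard error; red marks a likelihood ratio q-value under 0.05. *Dusp4*, *Dusp5* and *Spry4* lie to the right of 0, *Dusp1* and *Spred1-201* to the left, and the intervals of the grey transcripts all include 0.

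*Dusp4* rose most. The gene lies at chr8:34807297-34819894 on the forward strand of GRCm38, and its only annotated transcript (ENSMUST00000033930.4) has 4 exons and encodes 398 residues. Both WT libraries lay between 847 and 948 normalised estimated counts and both KD libraries between 3012 and 3372. The groups did not overlap: the nearest KD and WT libraries were at least 3.28-fold apart, whereas libraries of one group differed by at most 1.12-fold. The group means of 896 and 3186 gave a 3.55-fold rise (95% confidence interval 3.11 to 4.06), or 1.83 ± 0.098 on the log2 scale (SE, q = 0.0103). Among transcripts whose mean reached 100, 99.5% changed by less in either direction.

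*Dusp5*, which encodes a nuclear phosphatase specific for ERK, also rose. It lies at chr19:53529109-53542431 on the forward strand, with 1 annotated transcript (ENSMUST00000038287.6) of 4 exons and 384 residues. WT libraries lay between 1142 and 1160 and KD libraries between 2365 and 2402, so the nearest pair was at least 2.05-fold apart and libraries of one group differed by at most 1.02-fold. The means of 1151 and 2383 gave a 2.07-fold rise (95% confidence interval 1.82 to 2.36), 1.05 ± 0.095 on the log2 scale (SE, q = 0.0103). An antisense gene with no tested transcript, AC137853.2, overlaps 547 of its bases. Of the 31-base words in the *Dusp5* transcript, 78.8% occur in no other gene's transcripts on either strand. Whether strand was used to assign reads is not given in the sources used here, so reads of a gene and of an overlapping antisense gene cannot be told apart.

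*Dusp1* moved the other way. This immediate-early gene lies at chr17:26505590-26508519 on the reverse strand as the tested transcript, Dusp1-202 (ENSMUST00000025025.6), which has 4 exons and encodes 367 residues. WT libraries lay between 3234 and 3425 and KD libraries between 2053 and 2174, at least 1.51-fold apart at the nearest. The level was 36.5% lower in KD (95% confidence interval 28.6 to 43.6%), falling from 3328 to 2113, a log2 change of -0.66 ± 0.087 (SE, q = 0.0120). *Ergic1*, on the opposite strand, shares 640 bases with the whole annotated gene, which spans chr17:26505590-26562128, far beyond the tested transcript. Where in that span the shared bases lie is not given here. *Ergic1* moved in the other direction, by 0.34 on the log2 scale (q = 0.0232). Every 31-base word of the *Dusp1* transcript occurred in no other gene's transcripts on either strand.

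**Figure D2:**
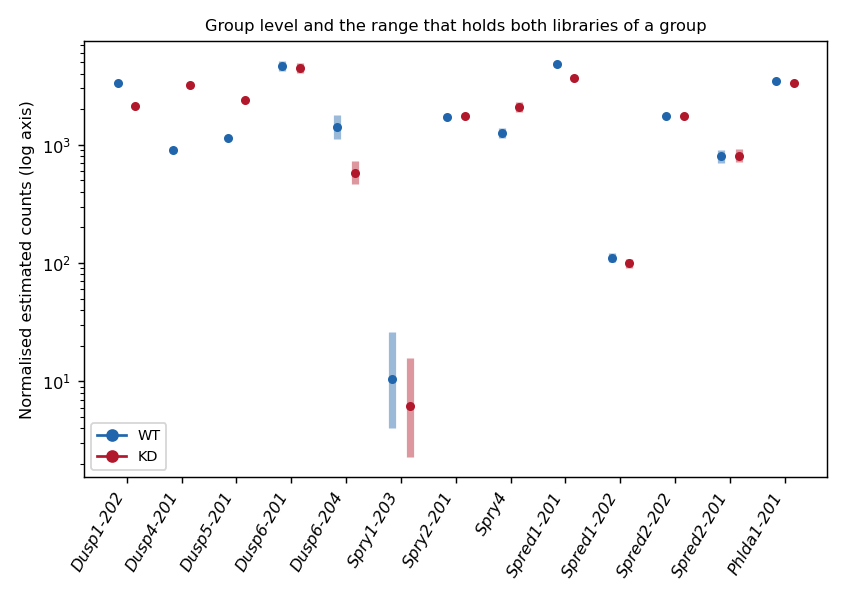
Group level of each transcript in normalised estimated counts (log axis) in WT (blue) and KD (red); dots are group means and bars the range that holds both libraries of the group. The KD and WT ranges of *Dusp1*, *Dusp4*, *Dusp5*, *Spry4* and *Spred1-201* are clear of each other, and *Spry1-203* lies far below the rest, with means of 10.5 and 6.24.

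The proportions of the nuclear phosphatases differed between the groups. Per kilobase of transcript, *Dusp1* stood at 1672 in WT, *Dusp5* at 465 and *Dusp4* at 327, and in KD they stood at 1062, 964 and 1163. The level of *Dusp4* was 0.196 times that of *Dusp1* in WT and 1.10 times in KD. *Dusp5* went from 0.278 to 0.908 times the *Dusp1* level. The ratio of *Dusp4* to *Dusp5* went from 0.703 to 1.21.

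The promoters of *Dusp1* and *Dusp5*, the nuclear phosphatases whose start sites were in the RefSeq table used (build GRCm38.p6), are shown because these neighbours in function moved apart. Each is printed 5′ to 3′ on the gene's strand, from 250 bases before the RefSeq start up to the annotated start of the transcript. That is chr17:26508520-26508722 on the reverse strand for *Dusp1* and chr19:53528895-53529108 on the forward strand for *Dusp5*. Capitals mark cAMP response elements and their half-sites in both promoters and, in *Dusp5*, also the CArG boxes, the letters bound by serum response factor.
Dusp1: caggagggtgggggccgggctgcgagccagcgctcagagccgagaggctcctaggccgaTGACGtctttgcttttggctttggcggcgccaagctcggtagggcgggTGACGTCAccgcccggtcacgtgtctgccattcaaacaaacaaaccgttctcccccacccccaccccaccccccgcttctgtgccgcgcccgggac
Dusp5: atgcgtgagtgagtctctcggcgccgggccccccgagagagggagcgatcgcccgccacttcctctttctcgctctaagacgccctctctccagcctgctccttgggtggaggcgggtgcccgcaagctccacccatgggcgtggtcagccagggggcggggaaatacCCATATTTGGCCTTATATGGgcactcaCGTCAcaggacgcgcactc

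The motifs were searched on both strands of the window from 250 bases before to 50 after the RefSeq start. Such a window was available for 7 of the 10 genes. *Dusp4* and *Spry4*, which rose, and *Phlda1* had none and were not examined. The *Dusp1* promoter holds a full cAMP response element 143 bases before the start, which 1.79% of 32851 promoters hold, and a further half-site (TGACG) 191 bases before it. The full element contains the half-site on each strand. At least 1 half-site occurs in 20.8% of promoters, among the members also in *Dusp5*, 55 bases before the start, and in *Spred2*, 51 bases before it. *Dusp5* holds 2 CArG boxes side by side, beginning 82 and 72 bases before the start. 1.63% of promoters have at least 1 CArG box and 0.0183% at least 2, and none of the other 6 member promoters has one. The ETS core CGGAAG, found in 16.9% of promoters, occurs once in *Dusp6* and *Spred2* and 2 times in *Spred1*. The AP-1 site TGANTCA (7.81% of promoters) and the TATA box TATAAA (13.6%) are in none of the 7 windows, and the GC box GGGCGG (35.7%) is in 5 of them, *Dusp1*, *Dusp5*, *Spred1*, *Spred2* and *Spry1*. These are matches of letters and no binding was measured.

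*Dusp6*, the cytoplasmic ERK phosphatase and the most abundant of the 4 DUSP genes among the members, was not called. Its full-length transcript Dusp6-201 (ENSMUST00000020118.4; chr10:99263231-99267488, 3 exons, 381 residues) was at 4637 in WT and 4476 in KD. Libraries lay between 4227 and 5087 in WT and between 4080 and 4910 in KD, and the groups overlapped. The log2 change was -0.05 with a 95% confidence interval from -0.31 to 0.21 (q = 0.418), an interval that leaves out changes of the size of *Dusp4* and *Dusp5*.

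The shorter Dusp6-204 (ENSMUST00000220291.1; 2 exons, 235 residues) was at 1415 in WT and 581 in KD. Its libraries lay between 1127 and 1776 in WT and between 463 and 730 in KD, and the groups did not overlap. It was not called, with a log2 change of -1.28 ± 0.83 (SE, 95% confidence interval -2.91 to 0.34, q = 0.254). Only 29 of its 31-base words, 1.25%, are missing from Dusp6-201, and the uncertainty of assigning reads, as the deposited technical variance measures it, made up 98.3% of the squared standard error. The limma test, which leaves that uncertainty out, gave an adjusted p of 0.0418. The short form took 23.4% of the *Dusp6* counts in WT and 11.5% in KD, and the summed gene level went from 6052 to 5057 with a gene-level q of 0.225.

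Among the Sprouty genes, 1 of 3 was called. *Spry4* (ENSMUST00000025295.6), an inhibitor of receptor signalling upstream of RAS, lay between 1149 and 1378 in the WT libraries and between 1905 and 2283 in the KD libraries. The groups were at least 1.46-fold apart, and libraries of one group differed by at most 1.20-fold. The rise from 1258 to 2085 was 1.66-fold (95% confidence interval 1.39 to 1.98), 0.73 ± 0.13 on the log2 scale (SE, q = 0.0217). Measured relative to *Actb*, which rose by 0.46 on the log2 scale (q = 0.0310), the change of *Spry4* was 0.27 and did not pass (Wald q = 0.242).

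*Spry2* was at similar levels in both groups and was not called. The gene lies at chr14:105891947-105896819 on the reverse strand, and its transcript (ENSMUST00000022709.5) carries all of its 315 codons in 1 of 2 exons. WT libraries lay between 1653 and 1802 and KD libraries between 1689 and 1842, and the groups overlapped. The log2 change of 0.03 had a 95% confidence interval from -0.15 to 0.22 (q = 0.113), which does not reach the change of *Spry4*.

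*Spry1* was close to undetected. The tested transcript, Spry1-203 (ENSMUST00000108109.7; chr3:37639947-37644598), is 1 of 3 annotated coding transcripts and stood at 10.5 counts in WT and 6.24 in KD. The ranges that hold its libraries ran from 4.02 to 26.2 in WT and from 2.27 to 15.9 in KD. A difference was not detectable at this depth: the log2 change of -0.70 had a 95% confidence interval from -3.21 to 1.80 (q = 0.728).

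The long *Spred1* transcript fell. Spred1-201 (ENSMUST00000028829.12; chr2:117121374-117182279, 7 exons, 444 residues) lay between 4541 and 5044 in the WT libraries and between 3498 and 3886 in the KD libraries, at least 1.20-fold apart. The mean went from 4786 to 3687, which was 23.0% lower (95% confidence interval 14.1 to 30.9%), a log2 change of -0.38 ± 0.08 (SE, q = 0.0285). The call depended on the test and on GC content: limma gave an adjusted p of 0.0602, and transcripts with GC content near its 41.2% had a median change of -0.22, which left -0.16 (Wald q = 0.199) after it was subtracted.

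The short Spred1-202 (ENSMUST00000110901.1; 5 exons, 229 residues) made up 2.27% of the *Spred1* counts in WT and 2.62% in KD. Its level was 111 in WT and 99.3 in KD, a log2 change of -0.16 with a 95% confidence interval from -0.71 to 0.38 (q = 0.343). For this transcript alone the deposited values do not settle whether the groups overlap.

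Neither transcript of *Spred2*, the other Spred gene, was called. Its main transcript Spred2-202 (ENSMUST00000093299.12; chr11:19924375-20024026, 7 exons, 437 residues) was at 1748 in WT and 1759 in KD, with libraries between 1703 and 1795 and between 1713 and 1806. The log2 change was 0.009, with a 95% confidence interval from -0.19 to 0.21 (q = 0.112). Spred2-201 (ENSMUST00000093298.11; 6 exons, 410 residues) was at 801 and 811, with a log2 change of 0.02 (q = 0.525). It shares all but 29 of its 31-base words with the main transcript, and its share of the counts was 31.4% in WT and 31.6% in KD.

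*Phlda1*, which encodes a protein with a pleckstrin homology-like domain and is a common target of ERK signalling, was not called. Its transcript (ENSMUST00000164773.1; chr10:111506286-111508645, 405 residues) lay between 3405 and 3569 in the WT libraries and between 3266 and 3424 in the KD libraries. The groups were apart by at least 1.01-fold, which is smaller than the difference of up to 1.05-fold that libraries of one group may have. The log2 change was -0.06, with a 95% confidence interval from -0.22 to 0.10 (q = 0.0836). The opposite-strand gene *Gm28592*, at 20.1 in WT and 27.5 in KD, shares 1088 bases with it, and 65.1% of the transcript's 31-base words occur in no other gene.

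The likelihood ratio test and the Wald test ranked the uncalled transcripts differently. *Phlda1*, Spred2-202 and *Spry2* had unadjusted likelihood ratio p-values of 0.0170, 0.0311 and 0.0317 although their changes were near 0, whereas their Wald p-values were 0.466, 0.929 and 0.740. In the whole table, 12323 transcripts had a Wald p above 0.5, and 5.42% of these had an unadjusted likelihood ratio p under 0.05 and 0 were called. Groups that must be apart were common in the whole table. Of the 12 member transcripts with a mean of at least 100, 7 had groups that must be apart, 4 had groups that must overlap and 1 was not settled, beside 65.3% of all such transcripts with groups apart.

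**Figure D3:**
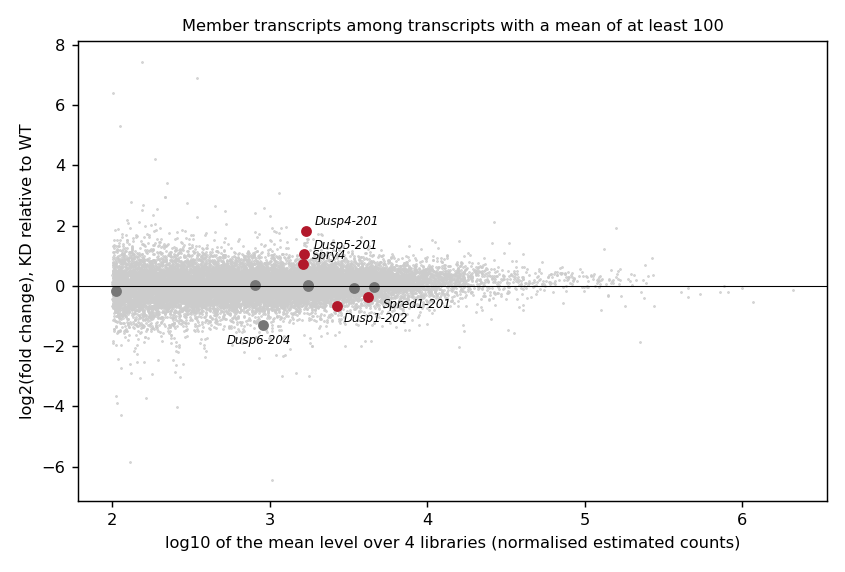
Log2 fold change in KD relative to WT against the log10 mean level over 4 libraries for 18808 transcripts whose mean reached 100 (light grey dots); large red dots are called members and large dark grey dots uncalled members. *Dusp4* lies near the upper edge of the cloud at its level, *Dusp5* and *Spry4* below it, and Dusp6-204 near the lower edge.

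In WT cells the order of the transcripts per kilobase, without *Spry4*, whose length was not used here, was *Phlda1* (1788), *Dusp1* (1672), Dusp6-201 (1658), *Spry2* (827), Spred1-201 (795), Dusp6-204 (600), *Dusp5* (465), Spred2-202 (393), *Dusp4* (327), Spred2-201 (281), Spred1-202 (77.2) and Spry1-203 (4.27). The library range of Dusp6-201 overlapped those of *Dusp1* and *Phlda1*. Overlap was also found between those of *Spry2* and Spred1-201 and between those of *Dusp4* and Spred2-201. In KD, *Phlda1* (1716) and Dusp6-201 (1601) stood highest, with ranges that overlapped, and *Dusp4* (1163), *Dusp1* (1062) and *Dusp5* (964) followed with ranges that did not. The members were abundant, with a median level of 1690 beside 155 for all transcripts, and their effects were measured more closely than most. Above a mean of 100 their median standard error was 0.099, and that of all transcripts 0.16, on the log2 scale.

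Among the members, *Dusp1* and *Phlda1* have 3′UTRs with a high density of the AU-rich pentamer ATTTA, an element found in short-lived mRNAs: 5.80 per kilobase in *Dusp1* and 4.90 in *Phlda1*. The median over 24776 tested transcripts was 1.16, and the others here had 0.84 to 2.77. The nonamer form of this element occurs 2 times in the *Dusp1* 3′UTR and 1 time in that of *Phlda1*, in 7.13% of all 3′UTRs, and in none of the other member transcripts examined. Of these mRNAs, *Dusp1* fell and *Phlda1* was not called.

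The median change of all transcripts was higher at higher GC content, and the members are given beside that trend. *Dusp4* (56.0% GC) and *Dusp5* (56.7%) lay well above the medians of 0.22 and 0.16 for their content, and still rose by 1.61 and 0.89 after these were subtracted. *Dusp1* (54.9%) lay below its median of 0.15, which gave -0.81. *Phlda1*, with the highest content at 58.9%, was at -0.24 after subtraction and passed the Wald test then (q = 0.0231).

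**Figure D4:**
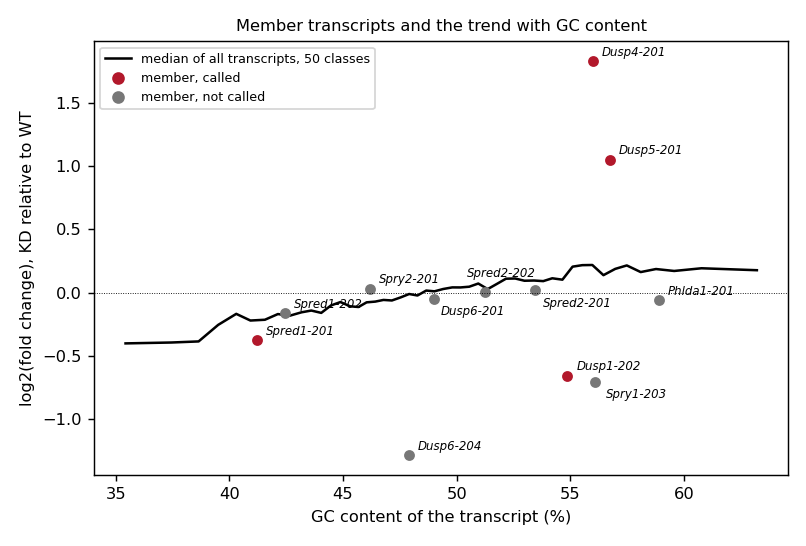
Log2 fold change of 12 member transcripts against GC content, with the median change of all transcripts in 50 classes of GC content (black line). *Dusp4* and *Dusp5* lie far above the line and *Dusp1* and Dusp6-204 far below it, whereas *Spred1-201* lies 0.16 below it.

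The remaining genes of the pathway were counted in 4 lists, by whether a gene had a transcript called higher or lower; over all genes 10.1% had one called higher and 7.43% one called lower. None of the listed genes had both. Of the 6 other MAP kinase phosphatases tested, 2 rose, *Dusp8* and *Dusp9*, and 4 did not pass. The larger rise, that of *Dusp9*, a cytoplasmic ERK phosphatase, was from 708 to 977, or 0.47 ± 0.12 on the log2 scale (SE, q = 0.0324). The median change of the list, in summed gene levels, was 0.19 beside -0.03 for all genes. Above a mean of 100, where the background is higher, 2 of 5 rose, beside 17.9% of all genes higher and 12.7% lower.

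Of 25 other negative regulators of the pathway that were tested, 11 rose, 1 fell and 13 did not pass, with a median of 0.22. Above a mean of 100, 45.8% of them rose and 4.17% fell. Those that rose were the ubiquitin ligase *Cblb*, the receptor inhibitor *Lrig1*, the adaptor *Dok1*, the GTPase-activating proteins *Rasa2*, *Rasa3* and *Rasal2*, the RAF inhibitor *Pebp1*, *Phlda3*, and the protein phosphatase 2A subunits *Ppp2cb*, *Ppp2r1a* and *Ppp2r2a*. The largest rise in 1 transcript was that of *Rasal2* (ENSMUST00000132699.7), from 101 to 209, 1.05 ± 0.33 on the log2 scale (SE, q = 0.0492). The summed level of *Rasal2* went the other way, by -0.19. *Il17rd*, also known as Sef and itself a feedback inhibitor of ERK signalling, fell from 291 to 170, a log2 change of -0.78 ± 0.20 (SE, q = 0.0297).

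In the core cascade, 7 of 36 genes rose, 3 fell and 26 did not pass, with a median of 0.06. Above a mean of 100, 21.2% rose and 9.09% fell, near the 17.9% and 12.7% of all genes. *Mknk1*, counted among those that rose for 1 transcript, had a summed change of -0.09. Of the kinases that activate ERK, *Map2k1* and *Map2k2* were both among the genes that rose, and a *Map2k2* transcript (ENSMUST00000143517.7) rose from 813 to 1627 (log2 change 1.00 ± 0.12, SE, q = 0.0109). The genes that fell were *Iqgap1*, *Sos1* and *Ppp1cb*. *Ppp1cb*, a phosphatase subunit of the complex that activates RAF, went from 12125 to 4345, a log2 change of -1.48 ± 0.10 (SE, q = 0.0103).

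ERK-dependent transcripts outside the members moved in both directions, with 11 of 29 genes higher, 6 lower and 12 not passing, and a median of 0.07. Above a mean of 100, 39.3% rose and 21.4% fell. The genes that fell were *Fos*, *Fosb*, *Egr1*, *Egr2*, *Ier2* and *Vgf*, and those that rose included *Hmga1*, *Hmga2*, *Ccnd1*, *Etv5*, *Fosl1* and *Myc*. The largest fall was that of *Fos*, from 2720 to 536, a log2 change of -2.34 ± 0.22 (SE, q = 0.0106). The largest rise in 1 transcript was that of *Hmga1* (ENSMUST00000231358.1), from 241 to 834, 1.79 ± 0.21 on the log2 scale (SE, q = 0.0120).

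**Figure D5:**
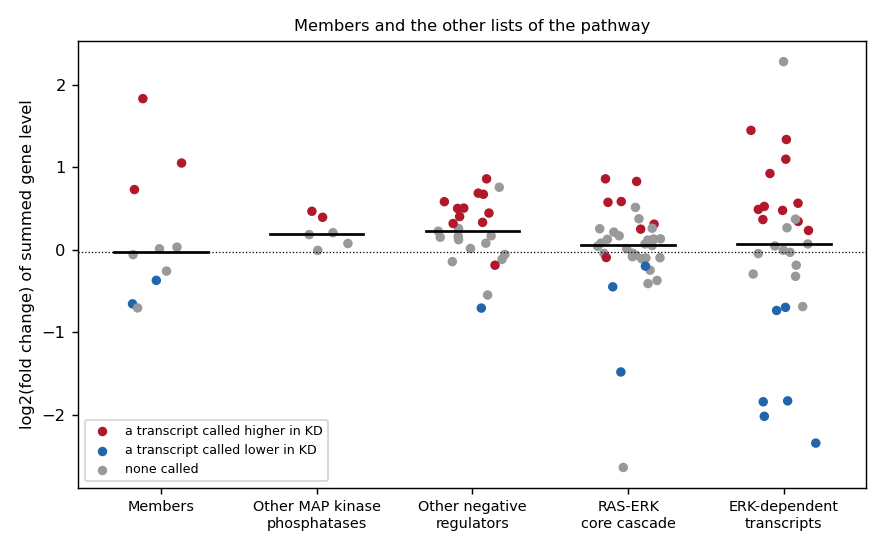
Log2 fold change of the summed level of each gene in KD relative to WT, for the 10 members and the 4 lists; red marks genes with a transcript called higher, blue those with one called lower and grey the rest, black bars are medians, and the dotted line is the median of all genes. The medians lie between -0.02 (members) and 0.22 (other negative regulators), and the ERK-dependent transcripts spread farthest among the called genes, from *Fos* at -2.34 to *Hmga2* at 1.45.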

How the data were processed

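Polyadenylated RNA of 2 KD and 2 WT libraries (stranded, TruSeq) had been processed by the authors with Kallisto and Sleuth against GRCm38; per the labels, bcl2fastq 2.17 and HISAT2 were also used. The deposited tables hold, for each transcript, the mean and variance of natural log (estimated count + 0.5), the effect KD minus WT with its standard error on the natural log scale, the technical variance of assigning reads, the test statistic of the likelihood ratio test (a deposited score), and deposited p-values and q-values of the likelihood ratio and Wald tests; a second table gives gene-level q-values. These comparison columns were used because they are the fit across all transcripts. No counts per library were used, so depth per library is not given and the standard errors carry the precision.

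From these, effects were converted to log2, levels were recovered as the exponential of the mean plus or minus the effect divided by 2, less 0.5, and the within-group sum of squares as 3 times the variance less the squared effect. With 2 libraries a group this sum bounds each library and the gap between groups. A limma 3.58.1 moderated test was rebuilt from these values (2 residual degrees of freedom, R 4.3.3); it leaves out the technical variance. The bounds and the limma test were tested on simulated data. Other steps used Python 3.11.15 with pandas 2.3.3 and scipy 1.17.1.

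Transcripts were matched by identifier and version to GENCODE M21 (98.6% of all, 12 of 13 members; the position, length and GC content of the *Spry4* transcript were not used here). Promoter windows came from RefSeq (GRCm38.p6). The genes, lists and tests were chosen with earlier results of these data known. All members were named, and in each list the called transcript with the largest rise and fall at a mean of at least 100; other called genes of the lists were named after their values were seen. Alternatives were the Wald and limma tests, minimum means of 10 and 100, and effects centred on the median, on GC content (50 classes) or on *Actb*.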

Additional observations from a re-analysis of the deposited data

How the results depend on the processing

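Of 88 log2 fold changes of member transcripts under other settings, 71 kept direction and call. The rises of *Dusp4* and *Dusp5* and the fall of *Dusp1* kept theirs in every setting run. Direction could change only where effects were centred on the median, GC content or *Actb*, because the other settings use the same effect. Relative to *Actb*, a shift of -0.46 for all transcripts, 8 member transcripts were called and 6 of them lower; *Spry4* (0.27, q = 0.242) no longer passed, Dusp6-201 (-0.51, q = 0.0143), *Phlda1* (-0.52, q = 0.00095), Spred2-202 (q = 0.0113) and *Spry2* (q = 0.0135) did, all lower, and 4.39% of 9196 calls were higher beside 58.2% of 4266. Changes near 0 as reported that turned sign were, relative to *Actb*, centred on the median and centred on GC content, those of Spred2-202 (-0.447, -0.0392, -0.0322) and Spred2-201 (-0.438, -0.0298, -0.0771), of *Spry2* relative to *Actb* (-0.425) and on the median (-0.0169), and of Spred1-202 on GC content (0.0148). Spred1-201 was lost with limma (adjusted p = 0.0602) and on GC content (q = 0.199), where *Phlda1* passed (-0.24, q = 0.0231). *Phlda1* also passed at a mean of at least 100 (q = 0.0498), where fewer transcripts were tested and 6440 called. With limma, Dusp6-204 passed (adjusted p = 0.0418). By the Wald test 2 of the other negative regulators fell. The cause of these changes was not tested, including whether it lies in the technical variance that limma leaves out. No paired analysis was possible because the deposited tables give no value per library, and leaving out single libraries was not run for the same reason.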
